A study of Mus musculus with 18 samples.

Results

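Genes of the synaptic vesicle cycle and of synapse adhesion were examined in the dorsal telencephalon, the embryonic forebrain region that forms the neocortex, of mice with and without the transcription factor Insm1. The list held 34 genes. Of these, 31 had a probe set of their own among the 16661 probe sets tested, and each of the 31 had a single such probe set. Vamp1 was covered only by a probe set shared with another gene, and Syt11 and Nrxn2 were not analysed here. The members were chosen for their known function at the synapse, but with earlier results of these data known. The list is therefore described by counts and medians, and was not tested as a whole. They lie on 17 chromosomes.

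The embryos were homozygous for an Insm1 knockout (4 embryos, 2 mutant alleles), heterozygous for it (6 embryos, 1 mutant allele) or wildtype (8 embryos), all at E13.5 (embryonic day 13.5). Neither the strain nor the design of the knockout allele is given in the sources used here. Separate litters are not stated for embryos of a genotype, so p-values measure only the spread between these embryos. The study set out to find genes that Insm1 acts on.

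A synaptic vesicle is filled with transmitter by a transporter, held near the membrane by synapsins, Rab3 and the proteins of the active zone, and fused with the membrane by the SNARE proteins syntaxin, SNAP-25 and synaptobrevin when synaptotagmin binds calcium. Neurexins and neuroligins join the axon to its target cell across the cleft. In the cortex at midgestation the first neurons have just been born and few synapses exist, but young neurons already transcribe many of these genes, and vesicle fusion also serves the growing axon. Insm1 is a zinc finger protein of newly formed neurons and endocrine cells.

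Insm1 itself checked the labels of the homozygous embryos. Its log2 signal averaged 3.31 ± 0.34 in homozygous embryos (SD, n = 4). It averaged 4.77 ± 0.39 in heterozygous embryos (SD, n = 6) and 5.34 ± 0.34 in wildtype embryos (SD, n = 8). All 4 homozygous embryos lay below every other embryo. Heterozygous embryos (4.02 to 5.17) overlapped wildtype embryos (4.84 to 5.77). Their log2 difference of -0.57 did not pass (limma adjusted p = 0.64), so Insm1 did not tell heterozygous and wildtype labels apart. The exact two-sided permutation test gave p = 0.00404 for homozygous against wildtype and p = 0.00952 for homozygous against heterozygous, in both cases the smallest value that the group sizes allow. Markers of the labelled tissue were measured in every genotype. The cortical neuron gene Tbr1 averaged 7.28 in homozygous, 7.39 in heterozygous and 7.48 in wildtype embryos, and the apical progenitor gene Pax6 averaged 6.24 in homozygous, 6.14 in heterozygous and 6.18 in wildtype embryos. Both were far above the median of every array (1.997 to 2.25). The 75th percentile of the arrays was 4.67 to 4.75 in homozygous, 4.50 to 4.78 in heterozygous and 4.67 to 4.87 in wildtype embryos, lowest in heterozygous replicate 6. Genes of the hypoxia response stood apart in homozygous replicate 2 (list mean 5.24) and heterozygous replicate 6 (5.20), against 3.26 to 3.74 in the other embryos. The Y-linked gene Eif2s3y was at its high level in 1 of 4 homozygous, 3 of 6 heterozygous and 5 of 8 wildtype embryos, so the genotypes were not balanced for sex.

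Of the 31 synapse genes, 2 fell in homozygous embryos by the test over all probe sets, and 29 did not pass. Syn2, which encodes the vesicle-tethering protein synapsin II, fell to 72.0% of wildtype, and Rab3gap2, which encodes the noncatalytic subunit of an enzyme that switches off Rab3, fell to 80.6%. Both were called lower, which makes 2 of 31 members (6.45%), against 0.504% of all probe sets. No member was called higher. All 31 members had a lower mean in homozygous than in wildtype embryos, against 59.1% of all probe sets, but after a further quantile normalization Syn3, Rab3gap1, Nlgn1, Nlgn2 and Nlgn3 had a higher mean, and after centring each array on its median the same genes except Nlgn2. The median log2 difference of the members was -0.20, against -0.03 over all probe sets. It shrank to -0.12 after quantile normalization (all probe sets -0.003) and to -0.13 after median centring (all probe sets 0.04). Part of the contrast with all probe sets came from dim ones. When the dimmest probe sets were left out, all 31 members stayed and 2 were called lower. Of the remaining probe sets 67.0% had a lower mean, and their median log2 difference was -0.06. Among these fewer probe sets 129 were called lower, against 84 of all 16661, so the members stood out less from this background. In that fit all 31 members still had a lower mean, with a median log2 difference of -0.20. A lower level in bulk tissue can come from fewer cells that express a gene or from less RNA per cell, and these cannot be told apart here.

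Both calls depended on homozygous replicates 2 and 3. Over all refits the adjusted p ran from 0.0083 to 0.077 for Syn2 and from 0.011 to 0.11 for Rab3gap2. Without homozygous replicate 2 the adjusted p of Syn2 was 0.058 (limma, log2 difference -0.46) and that of Rab3gap2 0.080 (-0.31). Without homozygous replicate 3 they were 0.077 (-0.44) and 0.11 (-0.29), so that 0 members were called in either case. Without heterozygous replicate 6, which only enters the estimate of spread, 4 members were called lower: Syn2, Rab3gap2, Snap91 and Slc17a7. Without both homozygous replicate 2 and heterozygous replicate 6, Syn2 alone was called, and the adjusted p of Rab3gap2 was 0.051 (limma, -0.31).

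The promoters of the called genes are shown because promoters are where transcription factors such as Insm1 bind. Both windows are from RefSeq (GRCm38.p6), run from 250 bases before to 50 bases after a transcription start, and are read 5′ to 3′ on the plus strand. Capitals mark matches to the E-box core CANNTG, which basic helix-loop-helix factors bind, and to TGNNNGG, a loosened form of the start of the consensus known for INSM1. Both motifs were searched on both strands.
Syn2, chr6:115134652-115134951: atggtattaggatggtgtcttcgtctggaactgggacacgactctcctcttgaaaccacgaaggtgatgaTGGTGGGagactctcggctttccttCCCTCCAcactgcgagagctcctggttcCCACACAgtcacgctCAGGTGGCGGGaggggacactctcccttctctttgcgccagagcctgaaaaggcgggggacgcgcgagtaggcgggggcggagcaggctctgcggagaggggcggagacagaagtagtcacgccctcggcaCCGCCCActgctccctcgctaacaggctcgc
Rab3gap2, chr1:185203918-185204217: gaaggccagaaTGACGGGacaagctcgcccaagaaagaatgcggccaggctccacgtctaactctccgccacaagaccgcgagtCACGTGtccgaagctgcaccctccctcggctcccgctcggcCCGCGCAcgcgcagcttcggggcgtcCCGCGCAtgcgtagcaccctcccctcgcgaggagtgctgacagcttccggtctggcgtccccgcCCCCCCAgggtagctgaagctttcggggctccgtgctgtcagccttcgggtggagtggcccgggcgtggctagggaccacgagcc
RefSeq lists a second Syn2 start inside the gene, whose window (chr6:115238744-115239043, not printed) held 1 match to CANNTG and 4 to TGNNNGG. The printed Syn2 window held 1 match to CANNTG and 5 to TGNNNGG, of which 1 overlapped the CANNTG match. The Rab3gap2 window held 1 and 4, with no overlap between the motifs. Such short motifs were common: 72.3% of all 32851 promoter windows held CANNTG and 94.0% held TGNNNGG. Of the members, 25 had at least 1 window in the table, 35 windows in all, and 71.4% of these held CANNTG and 97.1% TGNNNGG. A match is a string of letters and not a shown binding site.

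**Figure D1:**
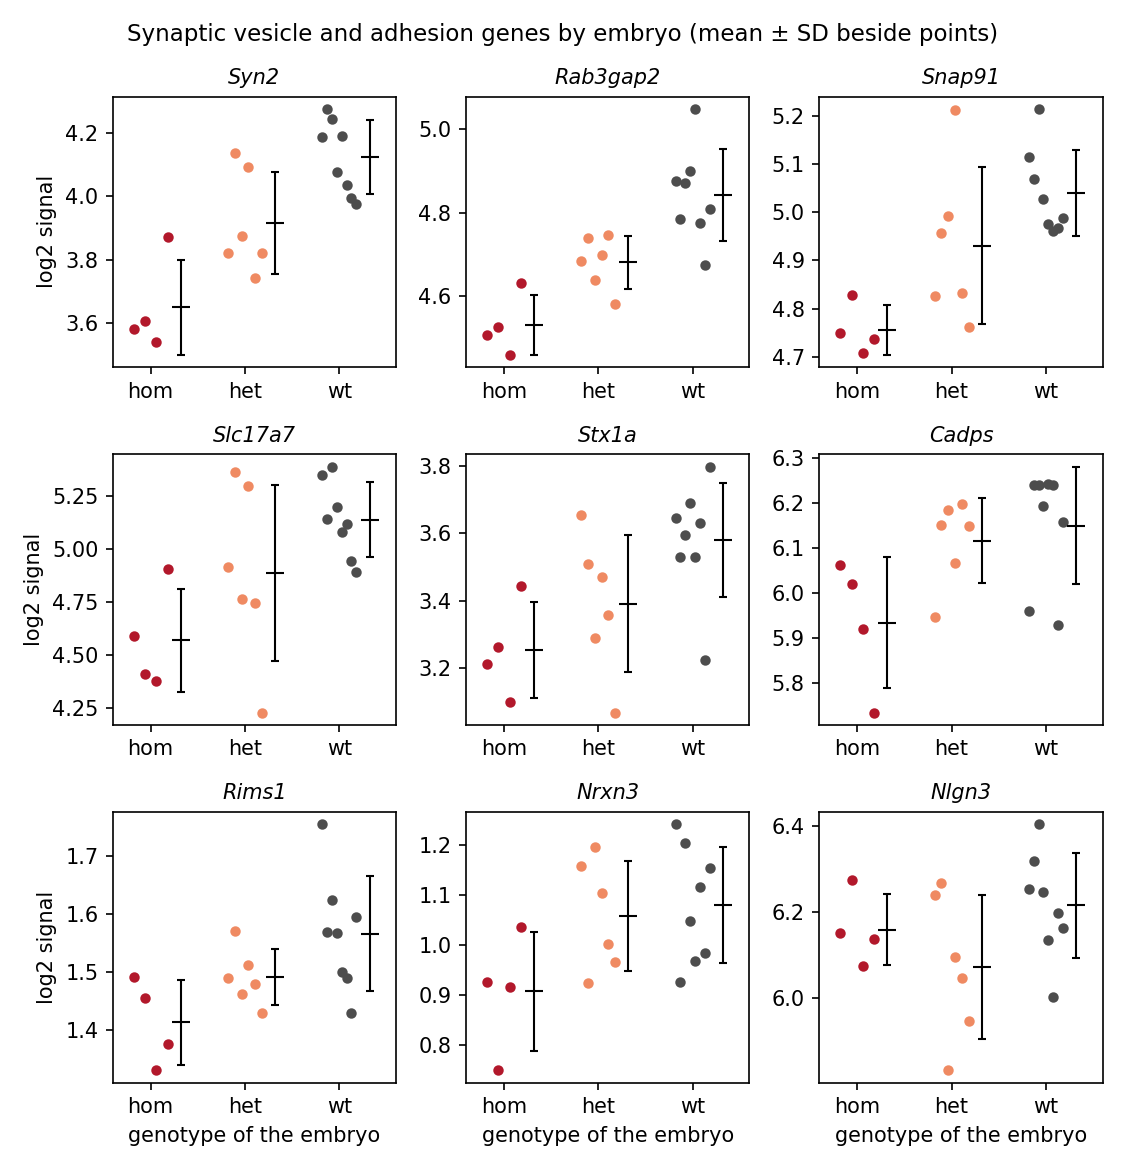
Log2 signal (vertical axes, each with its own range) in every embryo for 9 genes, by genotype: homozygous (hom, 4 embryos), heterozygous (het, 6) and wildtype (wt, 8). Points are embryos, and the bar beside them is the mean ± SD. In Syn2, Rab3gap2 and Snap91 the 4 homozygous embryos lie below all 8 wildtype embryos, while in Nlgn3 the genotypes overlap throughout.

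The vesicle proteins and transporters included Slc17a7 and Syn2, the genes with the largest differences of the 31 members. In this group of 9, all measured, 1 fell, against 0.504% of all probe sets called lower. The median log2 difference between homozygous and wildtype embryos was -0.22. Syn2 stood at 3.58, 3.61, 3.54 and 3.87 in the 4 homozygous embryos. It ran from 3.74 to 4.14 with a median of 3.85 in heterozygous embryos, and from 3.98 to 4.28 with a median of 4.13 in wildtype embryos. Every homozygous embryo was therefore below every wildtype embryo, and homozygous replicate 4 was the nearest to them. The log2 difference was -0.47 (SE 0.08, limma adjusted p = 0.0110). The metalloproteinase inhibitor gene Timp4 lies inside Syn2 on the opposite strand, and its signal was low, 0.90 ± 0.29 (SD, n = 4) in homozygous and 0.88 ± 0.17 (SD, n = 8) in wildtype embryos.

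The other synapsin genes did not pass. Syn1, the X-linked synapsin I gene, had a log2 difference of -0.22 (SE 0.10, limma adjusted p = 0.27), and Syn3 one of -0.02 with a 95% confidence interval of -0.22 to 0.18. Whether Syn2 changed more than its relatives was tested on the within-embryo difference of the 2 signals. The change of Syn2 exceeded that of Syn3 by -0.45 (exact permutation p = 0.0283) and that of Syn1 by -0.25 (exact permutation p = 0.0485). Over the 15 such pairs in 9 gene families the adjusted values were 0.14 and 0.18, so a difference between the synapsin genes was not established.

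Snap91 encodes AP180, a clathrin assembly protein that rebuilds vesicles after fusion. It stood at 4.75, 4.83, 4.71 and 4.74 in homozygous embryos, between 4.76 and 5.21 (median 4.89) in heterozygous embryos and between 4.96 and 5.21 (median 5.01) in wildtype embryos. The 4 homozygous embryos were close together and below all 8 wildtype embryos. The log2 difference of -0.28 (SE 0.07) did not pass over all probe sets (limma adjusted p = 0.072, and 0.036 to 0.22 over the refits). It passed without heterozygous replicate 4 (adjusted p = 0.036) or 6 (0.041), and with all heterozygous arrays left out of the fit (0.045). Syn2, Rab3gap2 and Snap91 were the 3 members, 9.68% of 31, with all homozygous below all wildtype embryos, a pattern found in 2.21% of all probe sets.

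Slc17a7, the gene of the vesicular glutamate transporter VGLUT1, had the largest difference of the 31 members. Its signal was 4.59, 4.41, 4.38 and 4.90 in homozygous embryos, 4.23 to 5.36 (median 4.84) in heterozygous embryos and 4.89 to 5.39 (median 5.13) in wildtype embryos. Homozygous replicate 4 reached the wildtype range, and the other 3 lay below it. The homozygous mean was 67.4% of wildtype (log2 difference -0.57, SE 0.16), with a limma adjusted p of 0.10 (0.032 to 0.29 over the refits). It passed without heterozygous replicate 6 (adjusted p = 0.032) and with all heterozygous arrays left out of the fit (0.037). Of the genotypes, the heterozygous embryos spread most widely, with an SD of 0.41. The second transporter gene, Slc17a6 (VGLUT2), which serves glutamate release in many embryonic neurons, had a log2 difference of -0.18 (SE 0.12). The change of Slc17a7 exceeded that of Slc17a6 by -0.39 (exact permutation p = 0.0202, and 0.14 adjusted over the 15 pairs).

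The remaining vesicle membrane proteins did not pass. Sv2a, the vesicle glycoprotein that binds the drug levetiracetam, had a log2 difference of -0.30 (SE 0.15). Syp, which encodes the abundant vesicle protein synaptophysin, had -0.17 (SE 0.12) and Sv2b -0.15 (SE 0.10). Sv2b was at a mean signal of 1.52 over all embryos, below the median of every array.

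**Figure D2:**
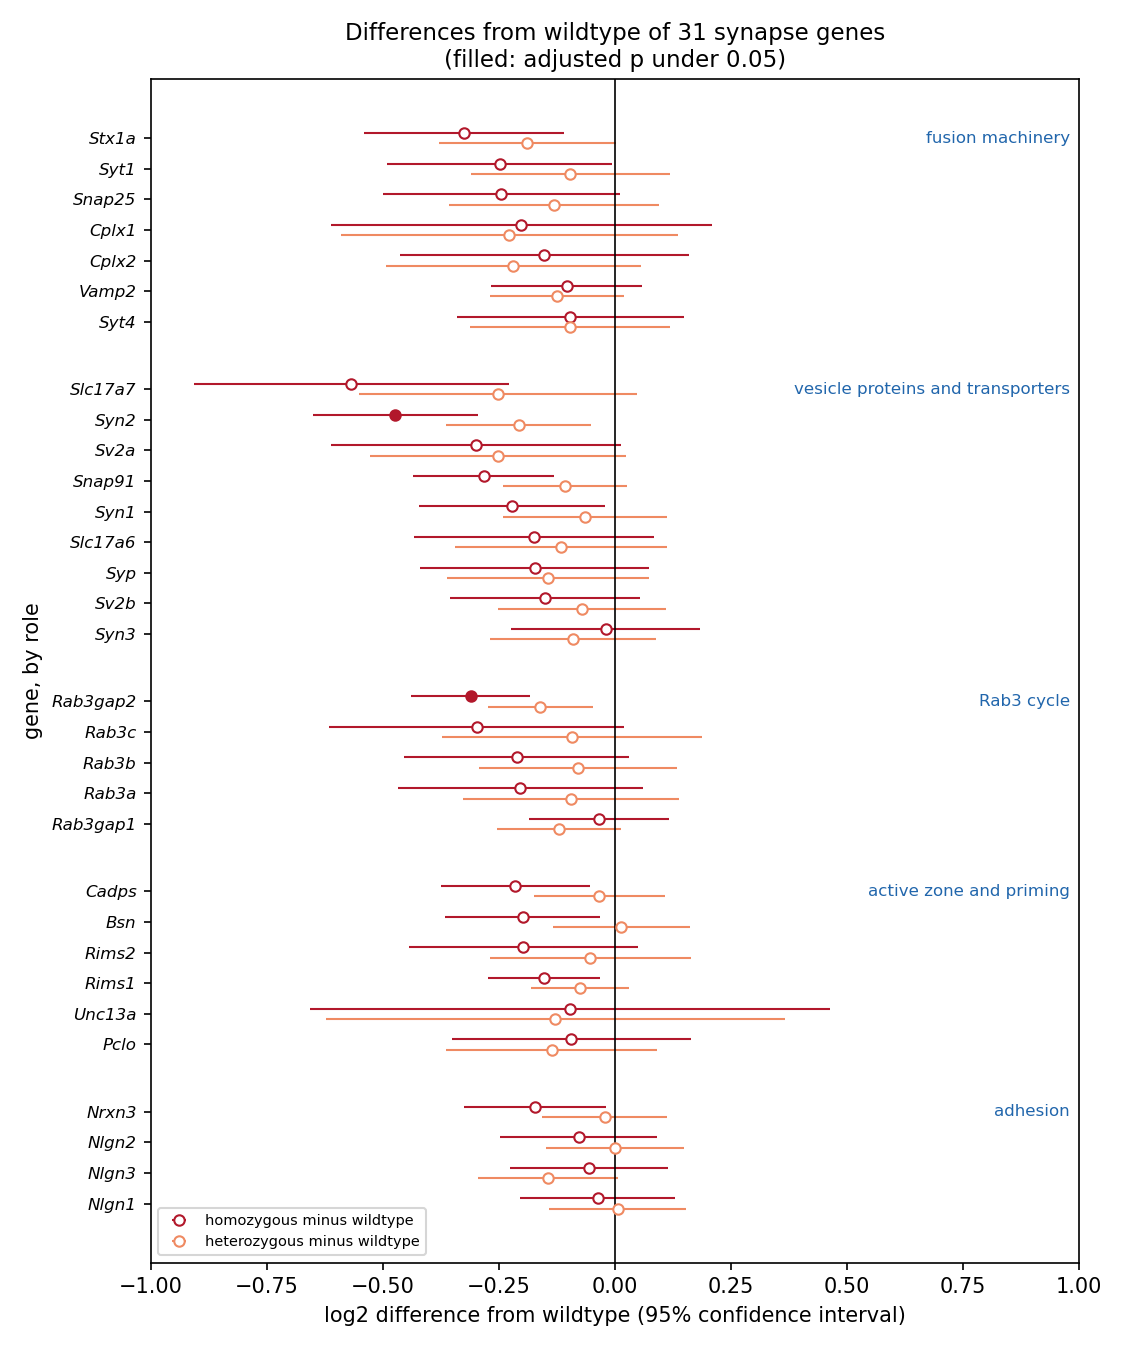
Log2 difference from wildtype (horizontal axis) with its 95% confidence interval for each of the 31 genes, grouped by role; red is homozygous minus wildtype and orange heterozygous minus wildtype. Filled points, Syn2 and Rab3gap2 in homozygous embryos, passed at an adjusted p under 0.05. All red points lie left of 0, from -0.57 for Slc17a7 to -0.02 for Syn3.

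Of the Rab3 cycle, all 5 genes were measured and 1 fell, against 0.504% of all probe sets called lower. Rab3 is the small GTPase that brings vesicles to the release site, and Rab3gap1 and Rab3gap2 form the enzyme that ends its active state. Rab3gap2 stood at 4.51, 4.53, 4.46 and 4.63 in homozygous embryos. It ran from 4.58 to 4.75 (median 4.69) in heterozygous embryos and from 4.67 to 5.05 (median 4.84) in wildtype embryos. No homozygous embryo reached the wildtype range, though replicate 4 came near it, and the heterozygous embryos lay between, overlapping both. The log2 difference of homozygous from wildtype embryos was -0.31 (SE 0.06, limma adjusted p = 0.0217). The call also ended when the embryo means of the hypoxia genes entered the fit (limma adjusted p = 0.065) or those of ventral telencephalon genes did (0.059), with log2 differences of -0.30 in both. It ended narrowly when heterozygous arrays were left out of the fit (0.050).

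The catalytic partner Rab3gap1 had a log2 difference of -0.04 with a 95% confidence interval of -0.19 to 0.12. Within embryos, the change of Rab3gap2 exceeded that of Rab3gap1 by -0.28, and in all 4 homozygous embryos this difference lay below all 8 wildtype embryos. The exact permutation p was 0.00404, the smallest possible, and 0.061 after adjustment over the 15 pairs. The GTPase genes themselves did not pass: Rab3a had a log2 difference of -0.20 (SE 0.13), Rab3b of -0.21 (SE 0.12) and Rab3c of -0.30 (SE 0.15). Rab3c, at a mean of 1.76, was below the median of every array. A difference in change between any of the 3 GTPase genes was not detected (0.01 to 0.09, exact permutation p of 0.61 to 0.94).

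None of the 7 measured genes of the fusion machinery passed, with a median log2 difference of -0.20 between homozygous and wildtype embryos. Stx1a, which encodes the plasma membrane SNARE syntaxin 1A, came closest. It stood at 3.21, 3.26, 3.10 and 3.44 in homozygous embryos, 3.07 to 3.65 (median 3.41) in heterozygous embryos and 3.22 to 3.80 (median 3.61) in wildtype embryos. All homozygous embryos were below the wildtype median, but wildtype replicate 7 was as low as they were. The log2 difference was -0.33 (SE 0.10, limma adjusted p = 0.13).

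Snap25, the SNARE partner of syntaxin, stood at 3.43, 3.53, 3.52 and 3.79 in homozygous embryos, 3.57 to 4.06 (median 3.61) in heterozygous embryos and 3.37 to 4.09 (median 3.84) in wildtype embryos. The genotypes overlapped, and the log2 difference was -0.25 (SE 0.12, limma adjusted p = 0.35). The calcium sensor gene Syt1 had a log2 difference of -0.25 (SE 0.12) and Syt4, which encodes a relative that does not bind calcium in the same way, one of -0.10 (SE 0.12). Vamp2, the vesicle SNARE synaptobrevin 2, had -0.10 (95% confidence interval -0.27 to 0.06). The complexin genes Cplx1 and Cplx2, whose products clamp the SNARE complex, had -0.20 (SE 0.20) and -0.15 (SE 0.15), with wide spread within each genotype.

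The active zone and priming genes, 6 of 6 measured, also had no call, with a median log2 difference of -0.18. Cadps encodes CAPS1, a priming factor of dense-core vesicles. It stood at 6.06, 6.02, 5.92 and 5.74 in homozygous embryos, 5.95 to 6.20 (median 6.15) in heterozygous embryos and 5.93 to 6.24 (median 6.22) in wildtype embryos. Of the homozygous embryos 2 lay below the wildtype range and all 4 below its median. The log2 difference was -0.22 (SE 0.08, limma adjusted p = 0.18).

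Rims1, a scaffold gene of the active zone, stood at 1.49, 1.46, 1.33 and 1.37 in homozygous embryos, 1.43 to 1.57 (median 1.48) in heterozygous embryos and 1.43 to 1.75 (median 1.57) in wildtype embryos. These signals were below the median of every array, and the log2 difference was -0.15 (SE 0.06, limma adjusted p = 0.20). Bsn, the gene of the large scaffold bassoon, had a log2 difference of -0.20 (SE 0.08), Rims2 of -0.20 (SE 0.12) and Pclo, which encodes the related scaffold piccolo, of -0.09 (SE 0.12). Unc13a, the gene of the priming protein Munc13-1, was the most variable member. Its signal ran from 3.70 to 5.15 among wildtype embryos (SD 0.57, n = 8), so that its log2 difference of -0.10 had a 95% confidence interval of -0.66 to 0.46.

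Among the adhesion genes, of 5 listed, 4 were measured, with no call and a median log2 difference of -0.07. The neurexin gene Nrxn3 stood at 0.93, 0.75, 0.91 and 1.04 in homozygous embryos, 0.92 to 1.195 (median 1.05) in heterozygous embryos and 0.92 to 1.24 (median 1.08) in wildtype embryos. This is near the floor of the arrays, and the log2 difference was -0.17 (SE 0.07, limma adjusted p = 0.26).

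The neuroligin genes were measured at higher signals. Nlgn3 stood at 6.15, 6.27, 6.07 and 6.14 in homozygous embryos, 5.83 to 6.27 (median 6.07) in heterozygous embryos and 6.003 to 6.40 (median 6.22) in wildtype embryos. All 4 homozygous embryos lay within the wildtype range. The log2 differences were -0.06 for Nlgn3 (95% confidence interval -0.23 to 0.11), -0.08 for Nlgn2 (-0.25 to 0.09) and -0.04 for Nlgn1 (-0.20 to 0.13). These intervals bound the change of each neuroligin gene, and the sign of the Nlgn3 and Nlgn1 differences turned under both rescalings of the arrays.

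**Figure D3:**
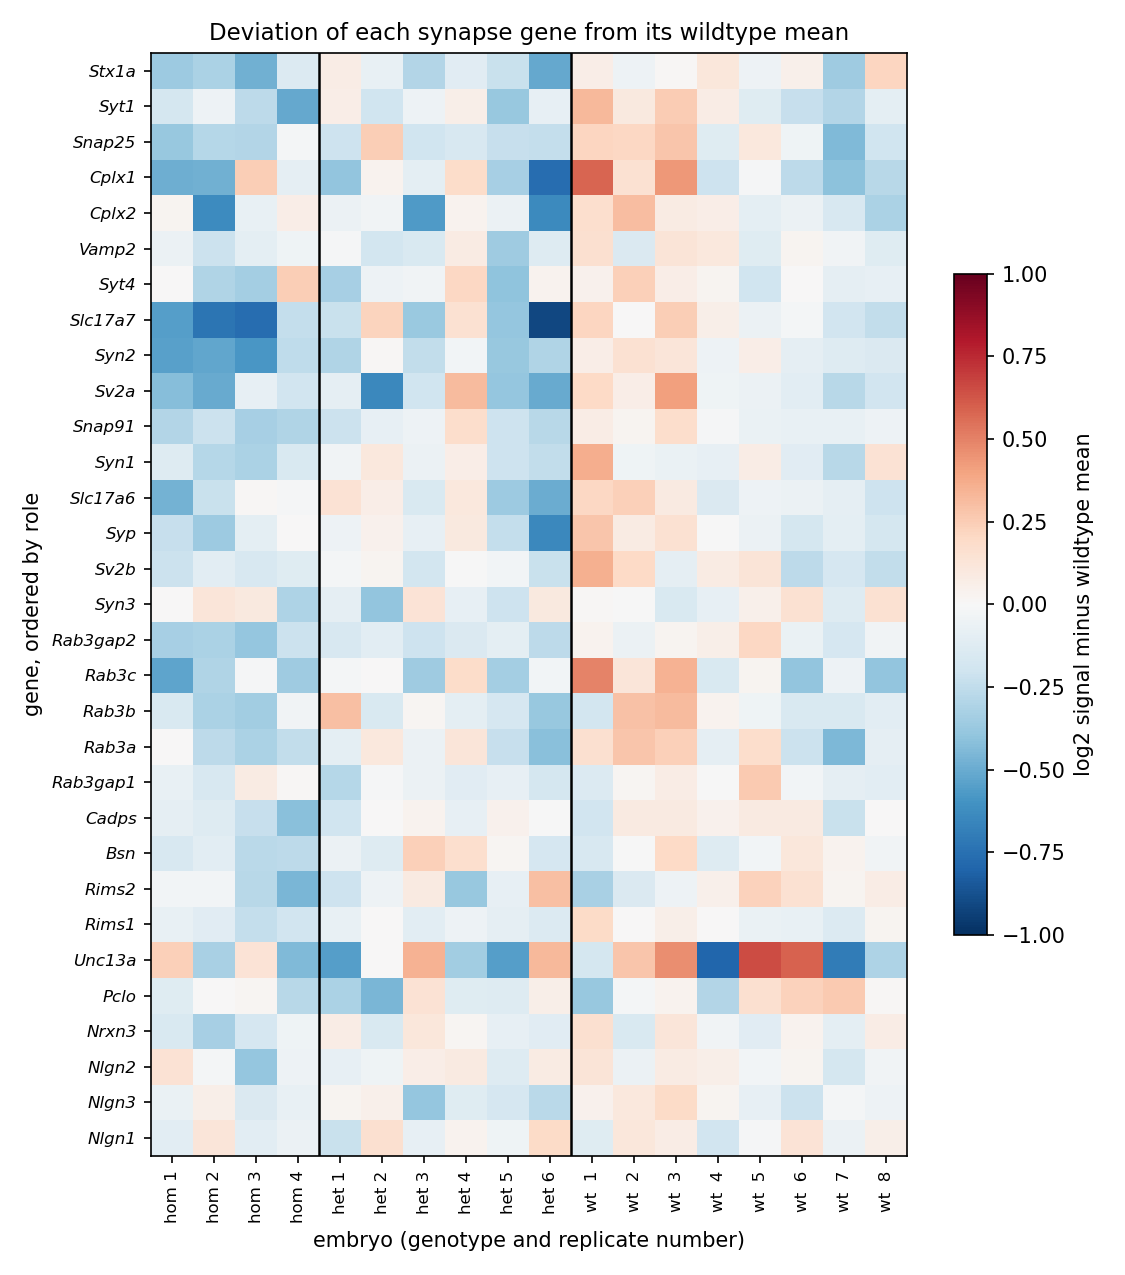
Log2 signal minus the wildtype mean of the gene (colour, blue lower and red higher) for the 31 genes (rows, ordered by role) in the 18 embryos (columns: 4 homozygous, 6 heterozygous and 8 wildtype). The homozygous columns are blue for most genes, and heterozygous replicate 6 is among the bluest columns. Slc17a7, Syn2 and Snap91 are blue in all 4 homozygous columns, while Unc13a varies within each genotype.

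Below the threshold over all probe sets, 11 of 31 members (35.5%) were lower at an unadjusted p under 0.05 in homozygous against wildtype embryos, against 12.1% of all probe sets. In 19 members all 4 homozygous embryos were below the wildtype median, against 20% of all probe sets, and in 25 at least 3 were, against 45%. The standard error of the homozygous difference ran from 0.06 to 0.27 over the members.

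The mean over the 31 members was 3.69, 3.64, 3.68 and 3.71 in the 4 homozygous embryos. It was 3.66 to 3.89 (median 3.77) in heterozygous embryos and 3.71 to 4.02 (median 3.88) in wildtype embryos. The homozygous embryos were close together and met only wildtype replicate 7, the lowest wildtype embryo. Heterozygous replicates 5 and 6 lay in the homozygous range.

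Marker lists of several cell types were measured beside the synapse genes. Of 9 cortical neuron markers listed, 8 were measured. In homozygous embryos 2 fell, against 0.504% of all probe sets called lower. They were Ina, a neurofilament gene (by 0.57 on the log2 scale), and Map2, a dendritic microtubule protein gene (by 0.30). None was called higher, and the median log2 difference was -0.29. The mean of these markers was 6.99 to 7.04 in homozygous, 7.10 to 7.39 in heterozygous and 7.19 to 7.52 in wildtype embryos. Markers of Cajal-Retzius neurons, an early neuron type of the cortical surface, were measured for 5 of 6 genes with none called. Their mean was 2.73 to 2.76 in homozygous, 2.94 to 3.10 in heterozygous and 2.88 to 3.13 in wildtype embryos. Apical progenitor markers (6 of 8 measured, none called) had a higher mean in homozygous than in wildtype embryos for 5 genes, with a median log2 difference of 0.13. Pax6 had 0.06 (SE 0.07), Fabp7 0.44 (SE 0.16, limma adjusted p = 0.18) and Hes5 0.43 (SE 0.18, limma adjusted p = 0.25). Hes5 stood at 8.60 in homozygous replicate 2, which also stood apart in the hypoxia genes, against 7.17 to 7.33 in the other homozygous embryos. Nes was the gene with a lower mean (-0.12, SE 0.11). The apical list mean was 7.21 to 7.55 in homozygous, 7.13 to 7.38 in heterozygous and 7.11 to 7.36 in wildtype embryos. Basal progenitor markers (4 of 4 measured, none called) were mixed, with Eomes at -0.34 (SE 0.08, limma adjusted p = 0.061) and Gadd45g at 0.30 (SE 0.10), and a list mean of 6.57 to 6.76 in homozygous, 6.41 to 6.69 in heterozygous and 6.48 to 6.80 in wildtype embryos. Erythroid markers (4 of 5 measured, none called) had a median log2 difference of 0.12, with 3 genes higher on average. Endothelium and pericyte markers (6 of 6 measured, none called) had a median of -0.11, with 5 genes lower and 1 higher on average. The lowest was Cdh5 at -0.45 (SE 0.12, limma adjusted p = 0.082). The lists of cortical hem and choroid plexus, meninges and microglia had medians of -0.01, 0.01 and 0.01, with none called. The ventral telencephalon and interneuron list, 7 of 10 measured and none called, was at 1.48 to 1.68 in homozygous, 1.52 to 2.40 in heterozygous and 1.47 to 2.24 in wildtype embryos. Its median log2 difference was -0.16, with 6 genes lower and 1 higher on average. The higher one was Gsx2 (0.08, SE 0.10), at a low signal (mean 0.81). The hypoxia list, 7 of 8 measured and none called, had a median log2 difference of 0.57 and ranges of 3.54 to 5.24 in homozygous, 3.30 to 5.20 in heterozygous and 3.26 to 3.74 in wildtype embryos. Separate fits took the array 75th percentile, Eif2s3y, the hypoxia list or the ventral list as a covariate. Syn2 passed in all 4, and Rab3gap2 passed in 2 and missed the threshold with the hypoxia and the ventral list. The part of the neuron, Cajal-Retzius, progenitor, erythroid and endothelial markers in the synapse gene differences was not tested.

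**Figure D4:**
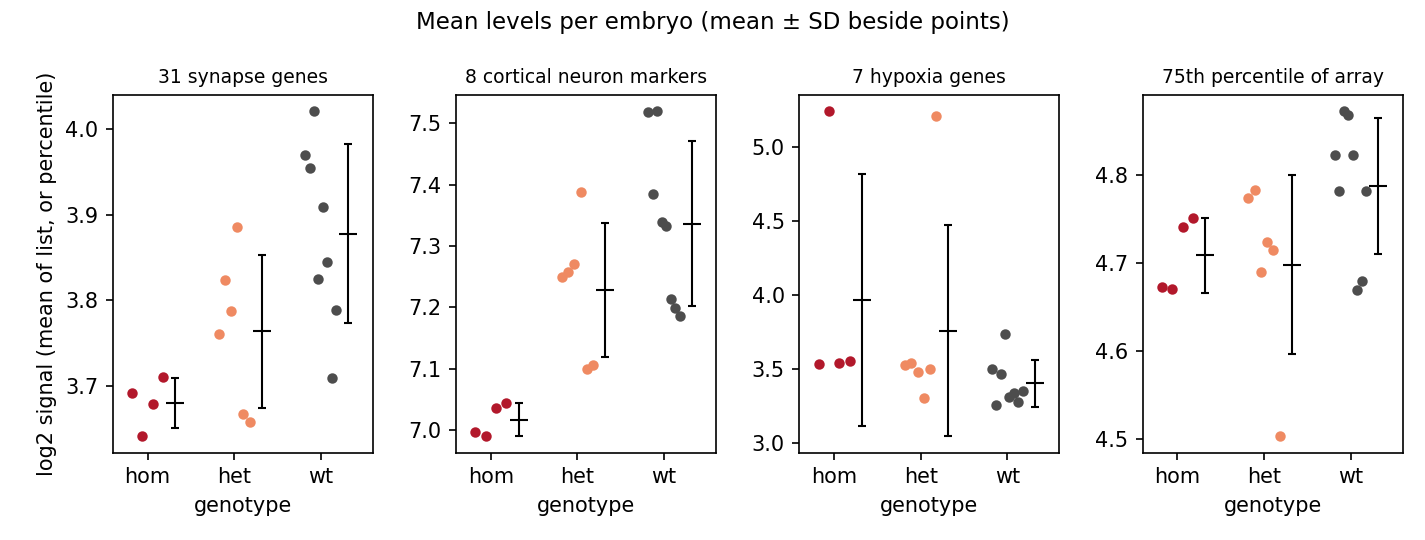
Mean log2 signal per embryo of the 31 synapse genes, of 8 cortical neuron markers and of 7 hypoxia genes, and the 75th percentile of each array (vertical axes, each with its own range), by genotype: homozygous (hom), heterozygous (het) and wildtype (wt). Points are embryos and bars the mean ± SD. The neuron markers separate the homozygous from all other embryos, whereas 1 homozygous and 1 heterozygous embryo stand above 5 in the hypoxia list.

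The second comparison set heterozygous against wildtype embryos, which differ by 1 mutant allele. No member passed, and limma called 0% of all probe sets, with 1245 probe sets at an unadjusted p under 0.05. The smallest adjusted p of a member was 0.66. At an unadjusted p under 0.05 there were 2 of 31 members, no larger a share than the 1245 of 16661 probe sets. They were Syn2 with a log2 difference of -0.21 (SE 0.07) and Rab3gap2 with -0.16 (SE 0.05). Of 31 members 29 had a lower mean, against 60.5% of all probe sets, with a median log2 difference of -0.11 against -0.025 over all probe sets. After quantile normalization the median was -0.05 with 25 members lower, after median centring -0.05 with 25, and with the 75th percentile as covariate -0.05 with 21. The smallest unadjusted p of the other roles belonged to Stx1a (-0.19, SE 0.09), to Nlgn3 (-0.14, SE 0.07) and to Rims1 (-0.08, SE 0.05). These values share the wildtype arrays with the homozygous comparison and are not independent of it.

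Between homozygous and heterozygous embryos no member passed either, against 0.03% of all probe sets, and the smallest adjusted p of a member was 0.42 (limma, Syn2, log2 difference -0.27, SE 0.09). The median log2 difference was -0.08, against -0.02 over all probe sets. On average 22 members were lower and 9 higher, and 55.7% of all probe sets were lower. At an unadjusted p under 0.05 there were 5 members, all lower in homozygous embryos, against 1421 of the 16661 probe sets in either direction. No member had all 4 homozygous embryos below all 6 heterozygous embryos. For Syn2 and Rab3gap2 the heterozygous mean lay between the other genotype means, and neither step passed over all probe sets.

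Other genes of the same machinery gave the context. Of 91 further synapse genes listed, 70 were measured, of which 1 fell in homozygous embryos and 0 rose, again against 0.504% called lower among all probe sets; their median log2 difference was -0.13, and 57 had a lower mean. The gene that fell was Erc1, which encodes the active zone scaffold ELKS. Its signal was 5.19, 5.02, 4.995 and 4.97 in homozygous embryos, 5.07 to 5.25 (median 5.15) in heterozygous embryos and 5.23 to 5.44 (median 5.33) in wildtype embryos. Each homozygous embryo was lower than any wildtype embryo, and the log2 difference was -0.29 (SE 0.06, limma adjusted p = 0.0192). The adjusted p ran from 0.0065 to 0.12 over the refits. It missed the threshold under quantile normalization (log2 difference -0.21) and under median centring (-0.22), with the hypoxia genes in the fit (adjusted p = 0.056), with the replicate number as a block (0.062), and without homozygous replicate 2, 3 or 4 (adjusted p = 0.081, 0.087 and 0.067). A second, dim probe set of Erc1 (mean 1.45) had a log2 difference of 0.02.

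In the group of Rab3 effectors and active zone genes that holds Erc1, 12 of 13 measured genes had a lower mean and the median log2 difference was -0.19. Madd, which encodes an activator of Rab3, had -0.31 (SE 0.10, limma adjusted p = 0.12), with all homozygous below all wildtype embryos, and the liprin gene Ppfia2 had -0.33 (SE 0.10, limma adjusted p = 0.10). Further fusion genes (15 of 19 measured, median -0.13) moved both ways on average. The synaptotagmin gene Syt7 had -0.29 (SE 0.08, limma adjusted p = 0.097) and the SNARE disassembly ATPase gene Nsf -0.23 (SE 0.08). Snap23, which encodes the SNAP-25 relative of non-neuronal cells, had 0.35 (SE 0.09, limma adjusted p = 0.075), and it passed, higher in homozygous embryos, under quantile normalization and median centring.

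Further adhesion genes (17 of 24 measured, median log2 difference -0.16, none called) included Ptprs, a receptor phosphatase that organizes presynaptic sites (-0.21, SE 0.06), Slitrk1 (-0.74, SE 0.30) and Flrt2 (-0.27, SE 0.11). Postsynaptic genes (11 of 15 measured, median -0.08, none called) included the scaffold genes Dlg4 (-0.26, SE 0.07, limma adjusted p = 0.10) and Homer1 (-0.18, SE 0.08) and the AMPA receptor gene Gria1 (-0.27, SE 0.13). Further vesicle genes (14 of 18 measured, median -0.06, none called) included Amph, for the endocytic protein amphiphysin (-0.22, SE 0.10), Synpr (0.14, SE 0.08) and Slc32a1, for the transporter of inhibitory neurons (-0.18, SE 0.11).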

How the data were processed

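Total RNA from 18 dorsal telencephalon samples was hybridized to Affymetrix whole-transcript arrays, 1 array per sample. The authors deposited 1 log2 signal for each transcript-level probe set and array. Per the submitters' processing notes they were made with RMA and Affymetrix Expression Console 1.1. No depth applies to arrays, and the number of arrays limits the precision.

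Groups follow the genotype in the sample titles. Of 23238 probe sets, the 16661 with an identifier of 6700000 or above were tested, since the others are not in the probe table used here. Genotype means were estimated jointly from the 18 arrays in limma 3.58.1 under R 4.3.3 (two-sided moderated test). Benjamini-Hochberg adjustment ran over 16661 probe sets, with a threshold of 0.05. The procedure was tested on simulated data. Insm1 and 15 pairs of related genes were tested by exact permutation of the genotype labels. The Insm1 test was planned, while the 15 pairs were not in the plan. No low-level filter was used.

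The members, the companion and marker lists, the alternatives and the rule for full description were chosen with earlier results of these data known. The rule takes members that passed in any comparison, those whose homozygous embryos all lay outside the wildtype range, and, per role, the members with the smallest unadjusted p in homozygous and in heterozygous embryos against wildtype. For each companion group it takes the 3 genes with the smallest unadjusted p. Slc17a7, Snap25, Unc13a and the Timp genes were added after their values were seen. RefSeq promoter windows (GRCm38.p6) were searched for short motifs. Alternatives covered scaling, weights, filters, covariates, thresholds, a replicate block and the removal of arrays.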

Additional observations from a re-analysis of the deposited data

Results flagged for a closer look

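Single embryos lay apart from the rest of their genotype in 3 of the 96 groups examined (32 genes in each genotype), judged by the gap to the nearest embryo relative to the range of the group. Chance alone marks about 1 in 20 groups. Snap25 stood at 4.06 in heterozygous replicate 2, against 3.57 to 3.65 in the other heterozygous embryos. Stx1a stood at 3.22 in wildtype replicate 7, against 3.53 to 3.80 in the other wildtype embryos. Insm1 stood at 4.02 in heterozygous replicate 6, against 4.76 to 5.17 in the other heterozygous embryos, and this array also had the lowest 75th percentile (4.50). The cause was not tested.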

How the results depend on the processing

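In 32 refits the median log2 difference of the members stayed below 0 in each comparison. The count of 2 members called lower in homozygous against wildtype embryos was 5 with a replicate block, 1 with the hypoxia list as covariate, 1 with the ventral list as covariate, 1 without homozygous replicate 2 and heterozygous replicate 6, and 0 at an adjusted p of 0.01. It ran from 0 to 4 when each array was left out in turn. The median moved to -0.29 with the replicate block, was -0.12 after quantile normalization and -0.14 with either the 75th percentile or the hypoxia list as covariate, and ran from -0.21 to -0.15 when each array was left out. In heterozygous against wildtype embryos these ranges were 0 to 0 calls and -0.14 to -0.07, and in homozygous against heterozygous embryos 0 to 0 calls and -0.13 to -0.07. The 1 call among companion genes became 4 with the replicate block (Cbln1, Madd, Ppfia2 and Rph3a, all lower, and not Erc1), 2 with the 75th percentile as covariate (Erc1 lower, Snap23 higher), 3 at an adjusted p of 0.10 (Erc1 and Syt7 lower, Snap23 higher), and 0 with the hypoxia list, at an adjusted p of 0.01, with the lowest probe set per gene and without both arrays that stood apart; it ran from 0 to 4 with each array left out. The difference of Nlgn3 changed sign after quantile normalization (0.0231), median centring (0.0075) and with the 75th percentile as covariate (0.0164). Syn2 passed in 30 of these refits, Rab3gap2 in 26, Snap91 in 4, Slc17a7 in 3 and Stx1a in 1. No member had several probe sets, so the lowest probe set gave no other value for them. The cause of these changes was not tested. No label pairs embryos by replicate number, and deviations of same-numbered embryos correlated over 0.1 in 5 of 14 pairs (-0.21 to 0.22). The block fit is therefore given only as an alternative among the refits. Array scale matters for the split of calls over all probe sets: 84 lower and 10 higher became 74 and 84 after quantile normalization, 67 and 75 after median centring, 74 and 99 with the 75th percentile as covariate. With the replicate block they were 347 and 14, without heterozygous replicate 6 they were 335 and 34, and without homozygous replicate 2 they were 31 and 5. Members near the floor of the arrays (5 with a mean under 2) can show little.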

Other observations

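Each of the 3 synapsin genes contains a gene for a tissue inhibitor of metalloproteinases in the RefSeq annotation: Timp1 lies in Syn1, Timp3 in Syn3 and Timp4 in Syn2. The differences of homozygous from wildtype embryos are given side by side for host and nested genes. Timp4 had a log2 difference of 0.01 (SE 0.11), against -0.47 for Syn2. Timp3 had -0.30 (SE 0.11, limma adjusted p = 0.20), against -0.02 for Syn3. Timp1 had 0.18 (SE 0.11, limma adjusted p = 0.48), against -0.22 for Syn1. Timp1 and Timp4 lay near the floor of the arrays, with means of 0.79 and 0.92 over all embryos. The differences between host and nested gene were not tested.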
